A study of Mus musculus with 8 samples.

Results

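The genes described here are 10 genes of the liver's NRF2 redox programme outside the glutathione S-transferases. They are Nfe2l2 and Keap1, the regulator and its repressor, together with the targets Gclc, Gclm, Gsr, Txnrd1, Nqo1, Hmox1, Ephx1 and Cyp2a5. They were chosen by gene symbol, with earlier results of these data known. All 10 are among the 11784 genes with a value in every mouse. Livers came from 8 male C57BL/6J mice that were switched at 9 weeks of age to an amino acid defined diet, 4 to the Control diet (TD.140711) and 4 to the Low AA diet (TD.140712), in which carbohydrate replaces most of the amino acid calories. The mice stayed on the diets for 4 months and were fasted overnight for about 16 hours before collection. All 8 mice were of 1 inbred strain and 1 sex, no genetic change or drug is named in the labels, and each library is labelled with the code of 1 mouse. Poly(A) RNA of whole liver was sequenced, and the value for each gene and mouse is a scaled read count, a whole number. How it was scaled is not stated in the sources used here.

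NRF2, encoded by Nfe2l2, is a transcription factor that turns on genes of antioxidant defence and detoxification. At rest, KEAP1 binds NRF2 and hands it to a CUL3 ubiquitin ligase for degradation. When electrophiles or oxidants modify KEAP1, NRF2 escapes, pairs with a small MAF protein and binds antioxidant response elements in DNA. Because this control acts on the protein, NRF2 activity is commonly read from its targets rather than from Nfe2l2 mRNA. In liver the targets keep glutathione and thioredoxin reduced, detoxify quinones, epoxides and heme, and supply NADPH. Glutathione itself is built from cysteine, glutamate and glycine, which the diet supplies in part.

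The question put to these data was whether the redox programme differed in liver between the diets. The core of the antioxidant response element is written TGACNNNGC, or GCNNNGTCA on the opposite strand. Promoter sequences were taken from RefSeq on GRCm38.p6, each running from 250 bases before to 50 bases after a transcript start, and such a window was matched for 7 of the 10 genes, the others being Gclc, Gsr and Hmox1. A core match was found in 3 of these 7 genes, against 17.2% of the 8500 genes of the table with a window and 12.4% of all 32851 windows. The 3 matches are shown first because they place the known recognition sequence beside its own regulator and a pair of targets, with the core in capitals and each sequence written 5′ to 3′ along the strand of its gene. A match here is a description of the letters and no evidence of binding.
Nfe2l2, chr2:75704865-75704913, minus strand, core starting at position -240 from the transcript start: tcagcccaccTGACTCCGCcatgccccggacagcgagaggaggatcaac
Gclm, chr3:122245393-122245461, plus strand, core at -134 on the opposite strand: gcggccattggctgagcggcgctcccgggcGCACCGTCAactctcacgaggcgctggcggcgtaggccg
Txnrd1, chr10:82859084-82859152, plus strand, core at -92 of the second of 3 starts, on the opposite strand: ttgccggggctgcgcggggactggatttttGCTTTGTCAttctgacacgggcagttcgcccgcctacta

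Ephx1 and Cyp2a5 had the largest differences between diets of the 10 genes, and the 1 window scanned for each held no core match, which says only that these letters are not in that window. The Ephx1 window lies at a RefSeq start inside the span of the gene, and the bases before its most distant GENCODE start were not scanned. The bases before the start in each window, up to the next annotated exon of the gene, are shown for comparison, in lower case throughout since no part of them matched.
Ephx1, chr1:181017570-181017819, minus strand: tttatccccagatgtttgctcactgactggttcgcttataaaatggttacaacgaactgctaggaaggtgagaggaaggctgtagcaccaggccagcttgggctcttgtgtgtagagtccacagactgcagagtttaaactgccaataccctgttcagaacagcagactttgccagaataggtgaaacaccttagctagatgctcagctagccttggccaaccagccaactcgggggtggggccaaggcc
Cyp2a5, chr7:26835089-26835304, plus strand: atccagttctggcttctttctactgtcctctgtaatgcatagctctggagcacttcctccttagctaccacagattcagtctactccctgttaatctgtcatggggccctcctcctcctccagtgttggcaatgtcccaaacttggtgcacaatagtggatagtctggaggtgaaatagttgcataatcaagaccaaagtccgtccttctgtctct

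Values summed to between 27876664 and 30799385 per mouse over the listed genes, after scaling. The hepatocyte markers Alb, Apoa1, Ttr, Serpina1c and Tat were all present, at 42227 or more in every mouse, so the libraries were liver. Control mouse F2212 stood apart in Cela1, a pancreatic elastase, with 36587 against 130 to 288 in the other 7 mice. Values without this mouse are given for Gclm, Ephx1, Cyp2a5, Akr1c19 and Cyp2a22, and not for the other single genes. F2212 was also the highest mouse in Ugdh, Abcc3, Blvrb and Ftl1. Differences were tested with limma on log2(value + 1) over all 11784 genes, and a gene is said to rise or fall where its Benjamini-Hochberg adjusted p is under 0.05. A positive log2 fold change means higher on the Low AA diet, and its standard error is given as SE.

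None of the 10 genes passed this test, in either direction. Of all genes tested, 0.399% passed, 0.102% being higher with Low AA feeding and 0.297% lower. At an unadjusted limma p under 0.05 there were 2 of the 10, Ephx1 and Gclm, against 11.8% of all genes. Only in Ephx1 did the values of the diets not overlap, 1 gene of 10, against 6.81% of all genes. The median log2 fold change of the 10 genes was -0.05, with 4 genes above 0 and 6 below, and that of all genes was 0.00. For 6 of the 10 genes the 95% interval of the log2 fold change lay within 0.5 on either side of 0, and for 9 it lay within 1.

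**Figure D1:**
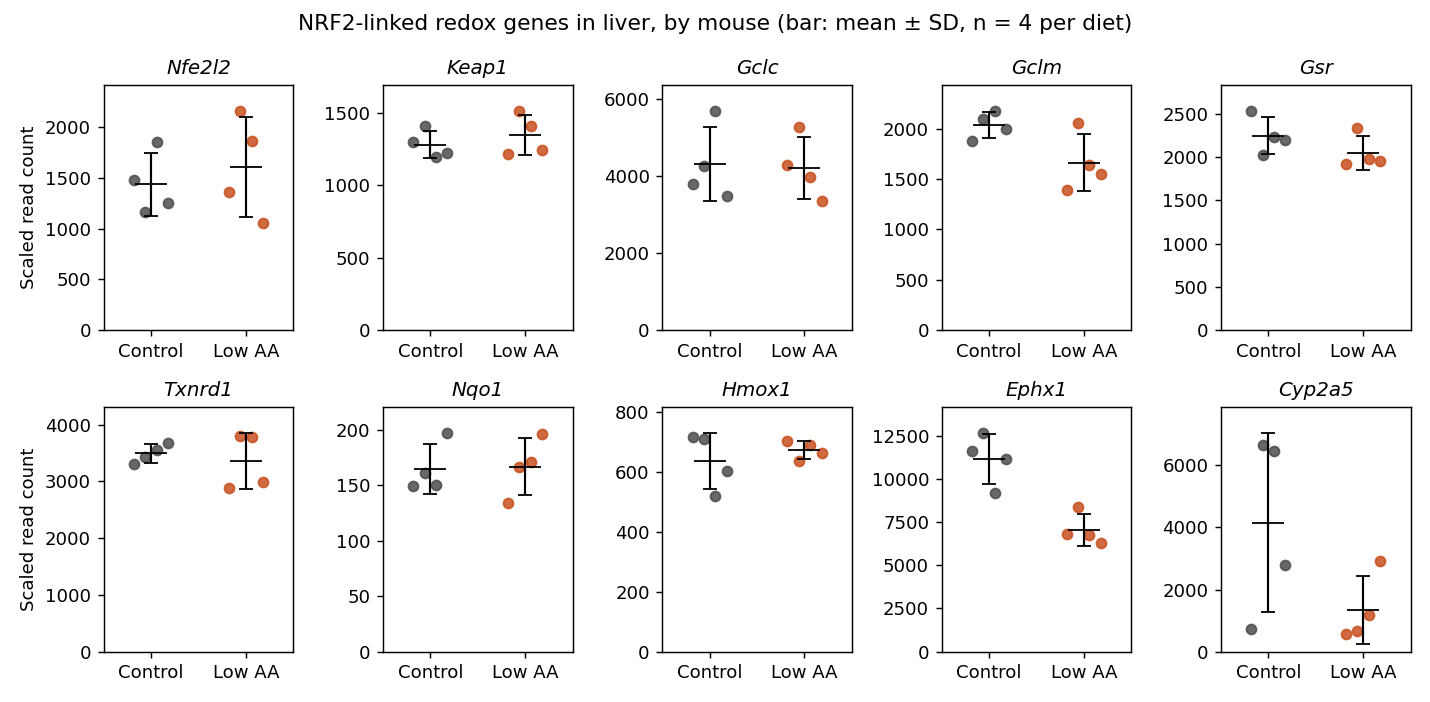
Scaled read counts (y axis, from 0) of the 10 genes in each Control mouse (grey) and Low AA mouse (orange), with the mean and SD over 4 mice per diet as black bars. Ephx1 is the only panel in which the diets do not overlap, and Cyp2a5 has by far the widest spread among mice of 1 diet.

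Between genes, levels were compared as scaled reads per kilobase of annotated exon. This length joins the exons of all transcripts of a gene, 7086 bases for Txnrd1 against 3622 in its longest coding transcript. The order between genes therefore depends on the annotation. Ephx1 was the most abundant of the 10, with 4661 ± 1263 reads per kilobase (SD over the 8 mice), and Nqo1 the least, with 107 ± 14.4. Cyp2a5 had 1324 ± 1215, Gclc 1131 ± 219 and Gsr 780 ± 79.0. The range of mean ± SD of Cyp2a5 overlapped that of every other gene of the 10 except Ephx1. Txnrd1 (483 ± 48.9), Nfe2l2 (401 ± 103), Hmox1 (374 ± 38.1), Gclm (294 ± 45.6) and Keap1 (280 ± 24.7) formed a run of neighbours whose ranges of mean ± SD overlapped from one to the next.

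Nfe2l2 and Keap1 did not pass the test. Nfe2l2 (chr2:75675513-75704641) had scaled read counts of 1478, 1160, 1854 and 1247 in Control mice F129, F2212, F7111 and F2110, and of 1363, 2157, 1863 and 1057 in Low AA mice H1126, H828, H817 and H1315. The lowest and the highest of the 8 values were both in Low AA mice, so the spread within that diet covered the whole Control range. Its log2 fold change was 0.14 (SE 0.22, 95% interval -0.36 to 0.63, limma adjusted p = 0.871). Keap1 (chr9:21229730-21239361) lay between 1196 and 1408 on the Control diet and between 1218 and 1512 on the Low AA diet, with a log2 fold change of 0.07 (interval -0.16 to 0.30, limma adjusted p = 0.86). Keap1 was among the steadiest of the 10 genes, its highest mouse only 1.26 times its lowest. An antisense gene, Gm16754, overlaps 510 bases of Keap1 exons, and the sources used here do not give whether counting used strand.

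None of the glutathione genes Gclc, Gclm and Gsr passed, and Gclm had the largest difference of the 3. Gclc (chr9:77754535-77794485) encodes the catalytic subunit of glutamate-cysteine ligase, the rate-limiting enzyme of glutathione synthesis. It had 3796, 4257, 5677 and 3485 scaled reads in Control mice F129, F2212, F7111 and F2110, and 4272, 5268, 3958 and 3350 in Low AA mice H1126, H828, H817 and H1315. The diets overlapped almost completely, with a log2 fold change of -0.02 (SE 0.17, interval -0.41 to 0.36, limma adjusted p = 0.978).

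Gclm (chr3:122245557-122270732), the modifier subunit that lowers the enzyme's need for glutamate, had 1878, 2097, 2175 and 2000 in the Control mice and 1395, 2062, 1638 and 1552 in the Low AA mice, in the same order of mice. In H1126, H817 and H1315 it was below every Control mouse, but H828 lay inside the Control range. The log2 fold change was -0.31 (SE 0.12, interval -0.58 to -0.03, unadjusted p = 0.0323, limma adjusted p = 0.366), and the exact permutation test over mice, two-sided, gave p = 0.0857. Without H828 the log2 fold change was -0.42 (limma adjusted p = 0.23), and without F2212 it was -0.29 (limma adjusted p = 0.426). Exons of Gm17494, on the opposite strand, and of Gm6061, on the same strand, overlap 296 and 244 bases of Gclm exons.

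Gsr (chr8:33652523-33698163) encodes glutathione reductase, which returns oxidised glutathione to its reduced form with NADPH. Its scaled reads ran from 2020 to 2533 in Control mice and from 1923 to 2343 in Low AA mice, a log2 fold change of -0.13 (interval -0.37 to 0.10, limma adjusted p = 0.701). Here 3 Low AA mice lay close together, at 1923, 1953 and 1977, all below the Control mice, and H828 lay above them at 2343.

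Txnrd1 (chr10:82833951-82897712), the cytosolic thioredoxin reductase, had 3302 to 3683 scaled reads on the Control diet and 2880 to 3791 on the Low AA diet. Its Control mice were close together (3492 ± 163, SD, n = 4), and the Low AA mice fell on both sides of them (3361 ± 492, SD, n = 4), with H1126 and H1315 below and H828 and H817 above. The log2 fold change was -0.07 (SE 0.11, interval -0.32 to 0.19, limma adjusted p = 0.881).

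Nqo1 and Hmox1, genes commonly used to read NRF2 activity, also did not pass. Nqo1 (chr8:107388225-107403206) encodes a quinone reductase. It had 149, 161, 150 and 197 scaled reads in Control mice F129, F2212, F7111 and F2110 and 134, 166, 171 and 196 in Low AA mice H1126, H828, H817 and H1315. The diets overlapped over most of their range, H1126 alone lying below every Control mouse, and the log2 fold change was 0.02 (SE 0.15, interval -0.32 to 0.36, limma adjusted p = 0.983), that is, a fold of 1.01 with an interval from 0.80 to 1.28. Changes beyond 1.28-fold up or 0.80-fold down were outside the interval for Nqo1.

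Hmox1 (chr8:75093621-75100589) encodes heme oxygenase 1, which opens the heme ring and is also expressed by Kupffer cells, the liver's macrophages. It had 715, 708, 520 and 604 scaled reads in the Control mice and 703, 636, 690 and 664 in the Low AA mice, a log2 fold change of 0.09 (interval -0.17 to 0.36, limma adjusted p = 0.834). The Low AA values lay inside the Control range, which was widened downward by F7111. In bulk liver RNA, fewer cells of a type and less RNA per cell cannot be told apart. The 11 macrophage markers looked at beside Hmox1 were all present and all at or above 121 in every mouse, and none passed the test. All 11 had log2 fold changes above 0, with a median of 0.21, and their summed values ran from 9960 to 15397 in Control mice and from 10954 to 15113 in Low AA mice. F7111, the mouse lowest in Hmox1, also had the lowest mean of the centred macrophage markers, 0.38 below the mean of the 8 mice on the log2 scale. F7111 was the lowest mouse in the 4 blood markers (-0.68) and the 2 adipose markers (-1.19) present as well. The part of macrophages in the Hmox1 values was not tested.

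Ephx1 had the smallest p of the 10 genes and a lower value in every Low AA mouse, but did not pass over all genes. Ephx1 (chr1:180976210-181020904) encodes microsomal epoxide hydrolase, which opens reactive epoxides to diols, and besides NRF2 it is known to respond to the xenobiotic receptor CAR. Scaled reads were 11587, 12651, 9190 and 11135 in Control mice F129, F2212, F7111 and F2110, and 6804, 8358, 6719 and 6265 in Low AA mice H1126, H828, H817 and H1315. Every Low AA mouse lay below every Control mouse, the nearest being H828 and F7111. Means were 11141 ± 1447 and 7037 ± 912 (SD, n = 4 each), a fold of 0.63 (interval 0.52 to 0.77) and a log2 fold change of -0.66 (SE 0.13, interval -0.94 to -0.38).

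The limma adjusted p of Ephx1 over all genes was 0.0653, short of the threshold, with an unadjusted p of 0.000371. The exact permutation test over mice, two-sided, gave p = 0.0286, the smallest that 4 mice against 4 allow, and Ephx1 was the only 1 of the 10 genes to reach it. Leaving out 1 mouse at a time gave log2 fold changes from -0.75 to -0.60 with limma adjusted p from 0.0413 to 0.238. It passed only without F7111, the lowest Control mouse, and without F2212 the log2 fold change was -0.60 (limma adjusted p = 0.0903). The study had also drawn Ephx1 in its own display of changed pathways from these same mice, so its difference here is not independent evidence. The caption of that display gives a threshold of q under 0.05 (FDR), whereas Ephx1 did not pass the limma test used here. Exons of Gm36961 on the same strand overlap 72 bases of Ephx1 exons.

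**Figure D2:**
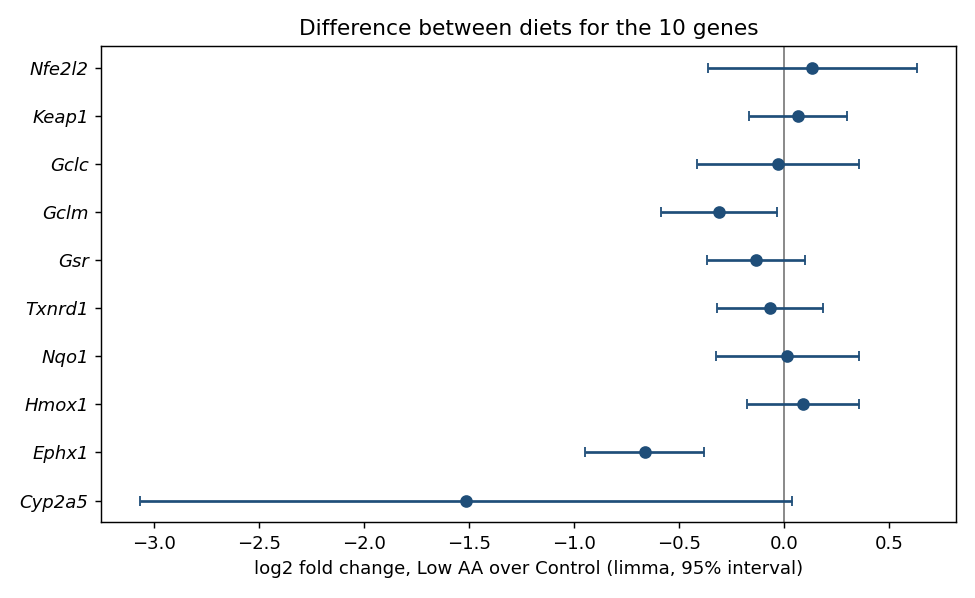
log2 fold change of Low AA over Control (x axis) for the 10 genes, with 95% intervals from limma. The intervals of Ephx1 (-0.94 to -0.38) and Gclm (-0.58 to -0.03) lie below 0 before adjustment over all genes, and that of Cyp2a5 runs from -3.07 to 0.04.

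Cyp2a5 had the largest mean difference and the poorest agreement among mice. Cyp2a5 (chr7:26835305-26843548) encodes a cytochrome P450 that hydroxylates coumarin and nicotine and is known to be induced in stressed liver. It had 744, 6644, 6445 and 2777 scaled reads in Control mice F129, F2212, F7111 and F2110, and 575, 674, 1173 and 2932 in Low AA mice H1126, H828, H817 and H1315. The diets overlapped in both directions, since F129 was below a pair of Low AA mice and H1315 above a pair of Control mice, and the highest mouse had 11.6 times the value of the lowest. The log2 fold change of -1.51 (SE 0.70, interval -3.07 to 0.04) did not pass (limma adjusted p = 0.441; exact permutation test, two-sided, p = 0.143). It was -2.19 without F129 (limma adjusted p = 0.171) and -1.14 without F2212 (limma adjusted p = 0.572).

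The scatter of Cyp2a5 around its diet means, an SD of 1.29 on the log2 scale, was larger than that of 99.7% of all genes, whose median was 0.22. Of the other 9 genes, Nfe2l2 (0.39) and Gclc (0.29) were above that median and the remaining 7 below it. Reads of Cyp2a5 can be shared with a near-identical neighbour. Of the 1914 windows of 100 bases in its longest GENCODE coding transcript, 14.4% occurred unchanged in Cyp2a4 or Cyp2a21-ps. No window of the longest coding transcript of the other 9 genes occurred in another gene, and their other transcripts were not scanned. Cyp2a4 is not among the genes of the table. The submitters' notes name RSEM for the read counts without its settings. How many reads of Cyp2a4 are in the values of Cyp2a5 is not known, so these are uncertain to that extent.

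Cyp2a5 is expressed mostly by hepatocytes around the central vein, so markers of that zone are given beside it. The 8 pericentral markers were all present and none passed the test, with a median log2 fold change of -0.27, 6 of 8 below 0. Their mean centred level, on the log2 scale, was -0.10, 0.26, 0.40 and -0.05 in F129, F2212, F7111 and F2110 and -0.29, -0.31, -0.07 and 0.16 in H1126, H828, H817 and H1315. The Control mice highest in Cyp2a5, F2212 and F7111, were also the highest in these markers, and H1315 was the highest Low AA mouse in both. The 7 periportal markers had a median of -0.13, 5 of 7 below 0 and none called. Their mean centred level was -0.0017, -0.39, 0.39 and 0.36 in F129, F2212, F7111 and F2110. In H1126, H828, H817 and H1315 it was -0.06, -0.38, -0.10 and 0.19. F7111 and H1315 were thus the highest mouse of their diet in the periportal markers too, whereas F2212 was the lowest Control mouse. The part of zonation in the Cyp2a5 values was not tested.

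**Figure D3:**
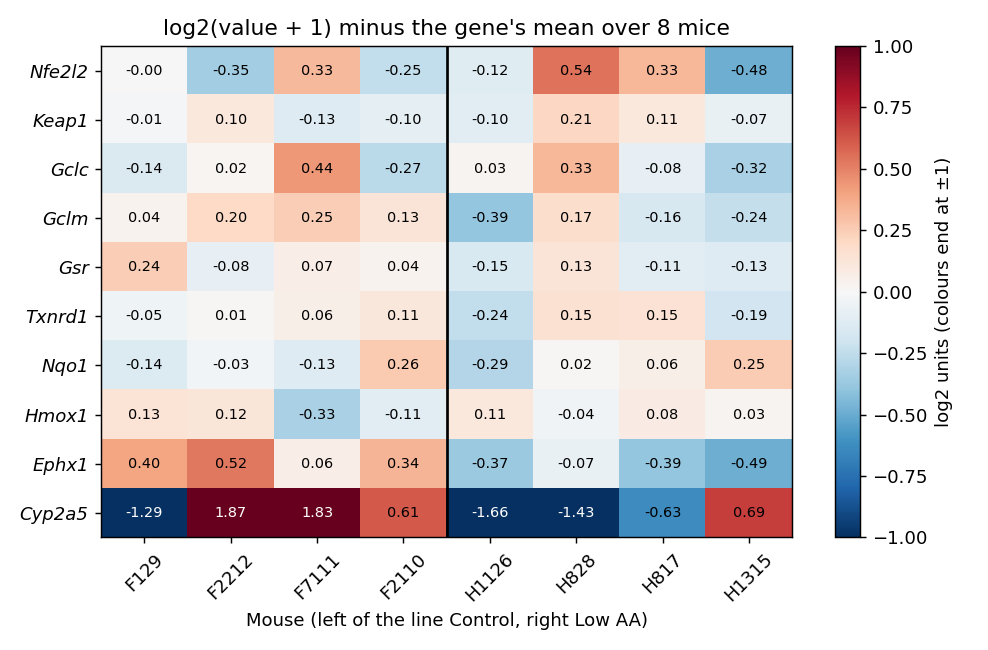
log2(value + 1) of each gene minus its mean over the 8 mice, with 1 column per mouse, Control at the left and Low AA at the right, and colours ending at 1 on either side of 0. Red and blue do not separate by diet except in Ephx1, which is positive in the 4 Control mice and negative in the 4 Low AA mice.

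The 10 genes did not move as a block in any mouse. Low AA mouse H1126 came nearest to it, being the lowest of the 8 in 5 genes and above the mean in 2. H828, on the same diet, was above the mean in 7 genes and the highest of the 8 in 3. Control mice F2212 and F7111 were each above the mean in 7 genes, and F7111 was the highest in 2 and the lowest in 2.

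Pairs of genes were then compared across the 8 mice after each diet's mean had been taken off, with an exact permutation of mice within diets. None of the 45 pairs passed after Benjamini-Hochberg adjustment, with a smallest adjusted p of 0.703, and 2 pairs had an unadjusted p under 0.05 for Pearson's r and 1 for Spearman's rho. Keap1 and Ephx1 had the smallest p, with r = 0.81 (exact permutation p = 0.0156, adjusted p = 0.703) and rho = 0.71 (exact permutation p = 0.0625, adjusted p = 0.727), and r fell to 0.44 without the 2 mice farthest from the median of Keap1. For Nfe2l2 and Gclc r was 0.76 (exact permutation p = 0.0451, adjusted p = 0.732) and rho 0.62 (exact permutation p = 0.16, adjusted p = 0.727), and r fell to 0.54 without the 2 mice farthest from the median of Nfe2l2. The median r over the 45 pairs was 0.26.

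Around these genes, 82 further genes of the NRF2 pathway and of redox metabolism were looked at in 10 lists, of which 76 were in the table. Of these 76 genes 1 passed, Akr1c19, which fell, against 0.399% of all genes. The 76 genes had a median log2 fold change of -0.04, with 36 above 0 and 40 below. At an unadjusted p under 0.05 there were 21 of the 76 (27.6%), and 12 (15.8%) did not overlap between diets, against 11.8% and 6.81% of all genes. The lists were chosen with earlier results of these data known, so these shares cannot be read as an excess of change in the pathway.

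Akr1c19 is an aldo-keto reductase, a family that reduces carbonyls and steroids with NADPH. It had 1027, 1502, 965 and 965 scaled reads in Control mice F129, F2212, F7111 and F2110 and 336, 499, 507 and 379 in Low AA mice H1126, H828, H817 and H1315. No mouse overlapped the other diet, and the log2 fold change was -1.37 (SE 0.18, interval -1.77 to -0.96, limma adjusted p = 0.0135). It passed without each of the 8 mice in turn, with -1.22 and an adjusted p of 0.0123 without F2212. Of the 100-base windows of its longest transcript 3.35% occurred in Marcksl1-ps4, a pseudogene lying within its exons. The other 12 genes of the list of quinone, carbonyl and epoxide detoxification in the table, Nqo1 and Ephx1 among them, were not called, and the list's median was 0.02. Of the 13 genes with Akr1c19, 5 (38.5%) had an unadjusted limma p under 0.05 and 3 (23.1%) did not overlap between diets. The shares over all genes were 11.8% and 6.81%, and the list was chosen with earlier results of these data known, so this is no test of it.

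**Figure D4:**
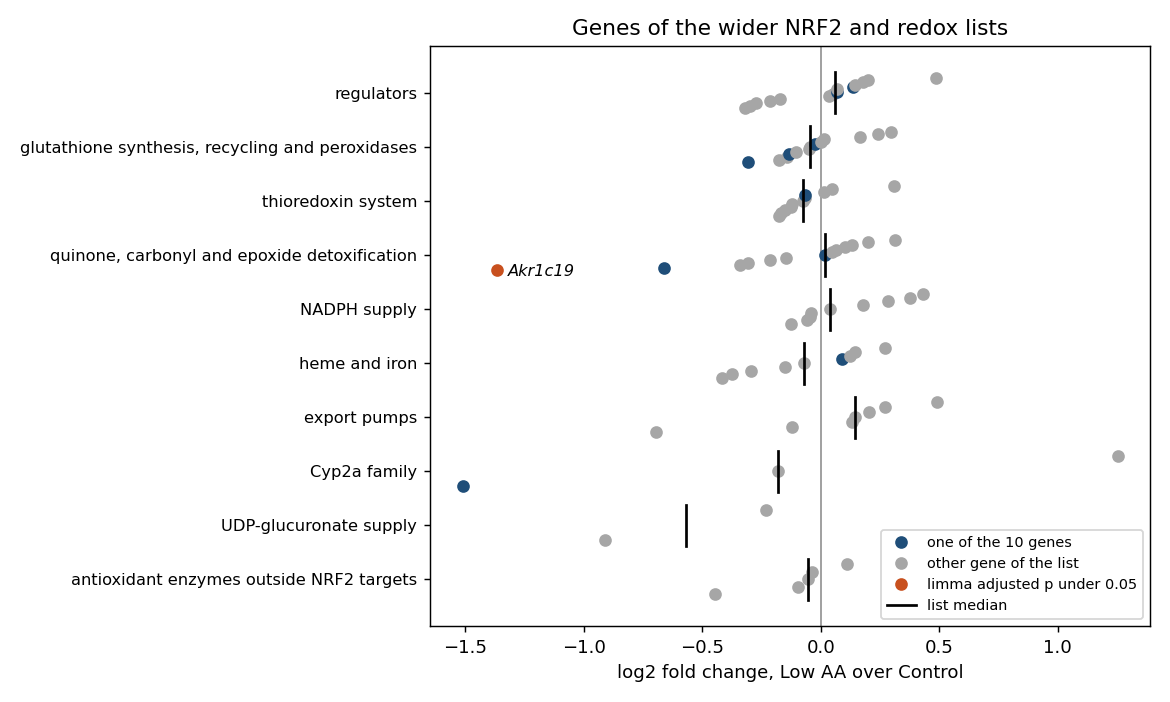
log2 fold change of Low AA over Control (x axis) for each gene of 10 lists (rows), with the 10 genes in blue, other list genes in grey, the gene passing a limma adjusted p under 0.05 in orange and the list median as a black bar. Only Akr1c19, at -1.37, passes, and the medians of most lists lie near 0.

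Among the regulators, 0 of 14 genes passed and the median log2 fold change was 0.06. Nfe2l1, a relative of NRF2 that drives proteasome genes, had the smallest p of this list. It had 4425 to 5036 scaled reads in Control mice and 5581 to 7257 in Low AA mice, without overlap, and a log2 fold change of 0.49 (SE 0.11 and an adjusted p in limma of 0.0917). Btrc, which encodes a ubiquitin ligase subunit that also targets NRF2, and Sqstm1, which encodes p62, a protein that binds KEAP1, had log2 fold changes of -0.32 and -0.30 (limma adjusted p = 0.33 and 0.422).

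The glutathione list had 0 of 13 genes passing and a median of -0.05. Oplah, the oxoprolinase of the glutathione cycle, had 6798 to 7180 scaled reads in Control mice and 7636 to 9567 in Low AA mice, a log2 fold change of 0.24 (adjusted p in limma = 0.348). Glrx, a glutaredoxin, had 0.30 (limma adjusted p = 0.347). In the thioredoxin list 0 of 11 passed, with a median of -0.08. Txnip, which binds and inhibits thioredoxin, had a log2 fold change of 0.31, and the peroxiredoxins Prdx6 and Prdx1 had -0.18 and -0.17 (limma adjusted p = 0.499, 0.643 and 0.695).

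Genes that supply NADPH had a median of 0.04, with 0 of 9 passing. Nnt, the mitochondrial transhydrogenase, had 1858 to 1957 scaled reads in Control mice and 2247 to 3094 in Low AA mice, a log2 fold change of 0.43 (adjusted p in limma = 0.146). C57BL/6J mice are known to carry a deletion in Nnt, so its reads do not stand for working enzyme. G6pdx, the first enzyme of the pentose phosphate pathway, had 116 to 131 and 149 to 195, without overlap, and a log2 fold change of 0.38 (adjusted p in limma = 0.284). Tkt, transketolase, had 0.28 (limma adjusted p = 0.337).

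In the heme and iron list 0 of 9 genes passed, with a median of -0.07. The values of Fech, Slc40a1 and Ftl1 did not overlap between diets, 3 genes of 9 against 6.81% of all genes. This list too was chosen with earlier results of these data known, so the share is not a test of it. Fech, the last enzyme of heme synthesis, had a log2 fold change of -0.29, Blvrb, a biliverdin reductase, -0.42, and Slc40a1, the iron exporter ferroportin, 0.27 (limma adjusted p = 0.266, 0.298 and 0.314). Red cell genes are given beside them, since red cells hold much Blvrb. The 4 blood markers present had log2 fold changes from -0.72 to -0.46, none called. They summed to 7206 to 27464 in Control mice and 9211 to 13541 in Low AA mice. Control mouse F2212 was the highest mouse in all 4, and the part of blood in these values was not tested.

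The export pumps had 0 of 7 genes passing and a median of 0.14. Abcc3, a pump for glucuronides, had 5769 to 7575 scaled reads in Control mice and 2967 to 5718 in Low AA mice, a log2 fold change of -0.70 (adjusted p in limma = 0.147). The 4 cholangiocyte markers present, given beside it because bile duct cells also make Abcc3, all had log2 fold changes below 0, with a median of -0.62 and none called. Their sums ran from 1124 to 2265 in Control mice and from 826 to 1316 in Low AA mice, and their part was not tested. The drug pumps Abcg2 and Abcb1a had 0.27 and 0.49 (limma adjusted p = 0.323 and 0.552). Ugdh, which makes UDP-glucuronate, had 2573 to 3586 in Control mice and 1073 to 1882 in Low AA mice, without overlap, and a log2 fold change of -0.91 (SE 0.18 and an adjusted p in limma of 0.0712). Ugdh too was drawn by the study from these mice, but likewise did not pass the limma test used here. Ugp2, the enzyme before it, had -0.23 (limma adjusted p = 0.543).

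The other Cyp2a genes of the table, Cyp2a22 and Cyp2a12, did not pass. Cyp2a22 had 41, 233, 42 and 75 scaled reads in Control mice F129, F2212, F7111 and F2110 and 154 to 200 in Low AA mice, a log2 fold change of 1.25 (SE 0.46 and an adjusted p in limma of 0.313). The overlap came from F2212 alone, and without that mouse the log2 fold change was 1.799 and passed (limma adjusted p = 0.0114). Since F2212 is the mouse that made the overlap, passing without it is not separate evidence. With any other mouse left out Cyp2a22 did not pass (limma adjusted p from 0.35 to 0.583). Cyp2a12 had -0.18 (limma adjusted p = 0.58). Among 5 antioxidant enzymes listed as not classical NRF2 targets, none passed and the median was -0.06. Gpx3, the secreted glutathione peroxidase, had -0.45, Sod2, mitochondrial superoxide dismutase, 0.11 and Cat, catalase, -0.10 (limma adjusted p = 0.42, 0.651 and 0.821).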

How the data were processed

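Per the labels, stranded poly(A) libraries of liver were made with the Illumina TruSeq kit, and the submitters' processing notes name bcl2fastq 1.8.2, STAR 2.5.0a, RSEM 1.2.6, edgeR 3.10.5, R 3.2.1 and the build mm10, without their settings. The authors deposited 1 table with a signal per gene and mouse, a scaled and rounded read count, beside a fold change and FDR of their own, which were not used. The values are not raw counts, since low whole numbers are missing or doubled at even spacing in all 8 mice, so count models were not run. The exact depth is unknown.

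For all 11784 genes together, limma 3.58.1 (R 4.3.3) was fitted with its trend option to log2(value + 1), and p-values were adjusted by Benjamini-Hochberg. No filter was applied. The fit was also run on simulated data with independent genes and no outlying mouse, which cannot show how reliable the calls are in these mice. Fold changes understate changes of low genes. Single genes were also compared by exact permutation tests over mice. Positions and exon lengths are those of GENCODE M21 on GRCm38. Alternatives were a pseudocount of 0.1 or 5, a fit to the 8000 genes of highest mean, equal totals, equal upper quartiles, no trend, robust moderation, and each mouse left out. The members and lists were chosen with earlier results of these data known. Text names the 10 members and, of each list, called genes or else the 3 smallest p, with Cyp2a4 and the marker lists beside them. The study housed its mice in groups, and the labels do not say which shared a cage, so cage and diet cannot be told apart. The p-values measure the spread between these mice and treat each mouse as independent. Figures used matplotlib 3.10.9.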

Additional observations from a re-analysis of the deposited data

Results flagged for a closer look

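Within each diet, the 4 values of each of the 10 genes were looked at for 1 mouse far from the rest, and 1 of the 20 groups held such a mouse, where chance gives about 1 in 20. It was Gsr on the Low AA diet. Mouse H828 had 2343 scaled reads against 1923, 1977 and 1953 in H1126, H817 and H1315, a gap of 0.86 of the group's whole range on the log2 scale. Without H828 the log2 fold change of Gsr was -0.20 (limma adjusted p = 0.597), against -0.13 with it.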

How the results depend on the processing

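Over all genes, 47 passed, against 19 among the 8000 genes with the highest mean, 30 without the mean-variance trend, and 16 to 77 with 1 mouse left out (16 without H817, 19 without H828, 21 without H1126, 29 without F129 and 77 without F2212). None of the 10 genes passed under the other 7 settings, and 0 to 1 passed with a mouse left out, the 1 being Ephx1 without F7111. Of the further genes, 1 passed under those 7 settings and 1 to 2 with a mouse left out, the second being Cyp2a22 without F2212. Signs turned with single mice in 5 genes near 0. With a mouse left out the log2 fold change ran from -0.0219 to 0.32 for Nfe2l2, from -0.0635 to 0.12 for Nqo1, from -0.14 to 0.12 for Gclc, from -0.0020 to 0.15 for Hmox1 and from -0.13 to 0.0046 for Txnrd1. The signs of Keap1, Gclm, Gsr, Ephx1, Cyp2a5 and Akr1c19 held in every setting run. Ephx1 had limma adjusted p of 0.0647 to 0.108 under the 7 settings with all mice. The exact permutation tests gave 1 gene at the smallest p under both other pseudocounts and equal totals, and were not run with a mouse left out, where 3 against 4 cannot go below 0.0571. No pair of genes passed under equal totals or with a mouse left out. No paired analysis was possible because no mouse code occurs in both diets. Nqo1 is not among the 8000 genes with the highest mean. With 4 mice per diet, small differences could not be detected.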
